A study of Mus musculus with 7 samples.

Results

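The GIMAP GTPases (GTPases of immunity-associated proteins) were followed in LSK cells of FVB mice that carry or lack a TRAF6 transgene. Rows of the deposited table were taken where the platform annotation gave a single gene symbol and that symbol was Gimap1, Gimap3, Gimap4, Gimap5, Gimap6, Gimap7, Gimap8 or Gimap9. All 8 genes were found among 14860 genes with a single symbol. Where a gene had several rows, its row was to be selected on the highest mean log2 value over all arrays, but each Gimap gene had exactly 1 row, so this choice was never needed. The groups compared were 3 adult FVB mice labelled TRAF6 transgenic (03, 04 and 05) and 4 adult wild-type FVB littermates (21, 22, 23 and 24), all untreated. LSK cells are bone marrow cells that lack lineage markers and carry both c-Kit and Sca-1, which enriches for stem cells and progenitors of the blood. RNA of each mouse was read on 1 Affymetrix exon array. The labels name neither the promoter that drives the transgene nor the founder line, and give no sex.

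GIMAP proteins share a GTP-binding domain of the AIG1 type, named after a plant gene, and many of them are anchored in the membranes of organelles. Their RNA is found mainly in lymphocytes and also in endothelial cells, and in mice and rats loss of several family members shortens the survival of lymphocytes. TRAF6, a ubiquitin ligase, acts downstream of innate immune receptors in the activation of NF-kB. The series compares the genotypes to ask how an excess of it acts on stem and progenitor cells.

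Values are log2 expression per transcript cluster, the array's unit for a gene, and differences are the labelled transgenic mean minus the wild-type mean. The table held 23332 clusters. Array medians lay between 5.98 and 6.21. Labelled transgenic 05 had the lowest median, the lowest mean correlation with the other arrays (0.966) and the lowest array weight (0.284), so results that rest on it are also given without it. Traf6 itself was 7.91 ± 0.34 (SD, n = 3) on arrays labelled transgenic and 8.15 ± 0.16 (SD, n = 4) on wild-type arrays, a difference of -0.24 (limma adjusted p = 0.676), so the arrays gave no check of the genotype label. The Y-linked genes Eif2s3y and Kdm5d differed by -5.45 and -2.63 and separated the same 3 arrays from the same 4, and genotype and this Y-linked signal cannot be told apart here. Kit, the gene of the gate marker c-Kit, differed by -0.05. Cd34 and the pan-leukocyte gene Ptprc, which do not define the gate, differed by -0.13 and -0.33. Groups overlapped for each of these genes. Without array 05, Kit, Cd34 and Ptprc differed by 0.097, -0.013 and -0.16. The Sca-1 gene Ly6a was not analysed here. Fewer cells of a type and less RNA per cell cannot be told apart in these bulk samples.

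Of the 8 members, Gimap6 had the largest difference, which did not pass the adjusted threshold, and its groups did not overlap. Over all clusters 5.18% were lower and 5.17% higher without overlap. The Gimap6 protein binds GABARAPL2, a member of the Atg8 family of autophagy proteins. Gimap6 measured 7.78, 7.82 and 7.25 on labelled transgenic 03, 04 and 05, against 8.29, 8.41, 8.68 and 8.55 on wild type 21, 22, 23 and 24. The highest labelled transgenic value lay 0.47 below the lowest wild-type value, and array 05 was the lowest of all. The means were 7.62 ± 0.32 (SD, n = 3) and 8.48 ± 0.17 (SD, n = 4), a difference of -0.87 (SE 0.17, 95% interval -1.27 to -0.46). On a linear scale that is 0.549 of the wild-type level, with an interval of 0.415 to 0.726. Benjamini-Hochberg adjustment over all clusters gave limma adjusted p = 0.283, which misses the threshold of 0.05. Without adjustment the limma p was 0.00126. Among all clusters 98 had a smaller p and 363 had a more negative difference. Without labelled transgenic 05 the difference was -0.68 (SE 0.13, adjusted p = 0.169), and the groups remained apart.

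By the adjusted threshold, 0 of the 8 members differed in limma, against 5 clusters of the whole table, or 0.0214%, all of them lower. The Y-linked genes Eif2s3y and Kdm5d are among these 5, with limma adjusted p of 1.82e-05 and 0.00528. At unadjusted p under 0.05, 1 member was lower and 0 were higher, where 5.05% of all clusters were lower and 5.22% higher. Groups did not overlap for 1 of 8 members, which was lower, against 5.18% of clusters. A single gene is too few to set its share apart from these. Differences were below 0 for 7 of 8 members and for 50.3% of all clusters. The median difference was -0.09 over the members and -0.0018 over all clusters. Without labelled transgenic 05, 4 of 8 members were below 0 and their median was 0.02, with Gimap1, Gimap5 and Gimap8 now above 0. The median over all clusters was 0.037 in that fit, so the table as a whole moved up as well. Leaving out any other array kept the member median below 0, at -0.14 to -0.048.

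**Figure D1:**
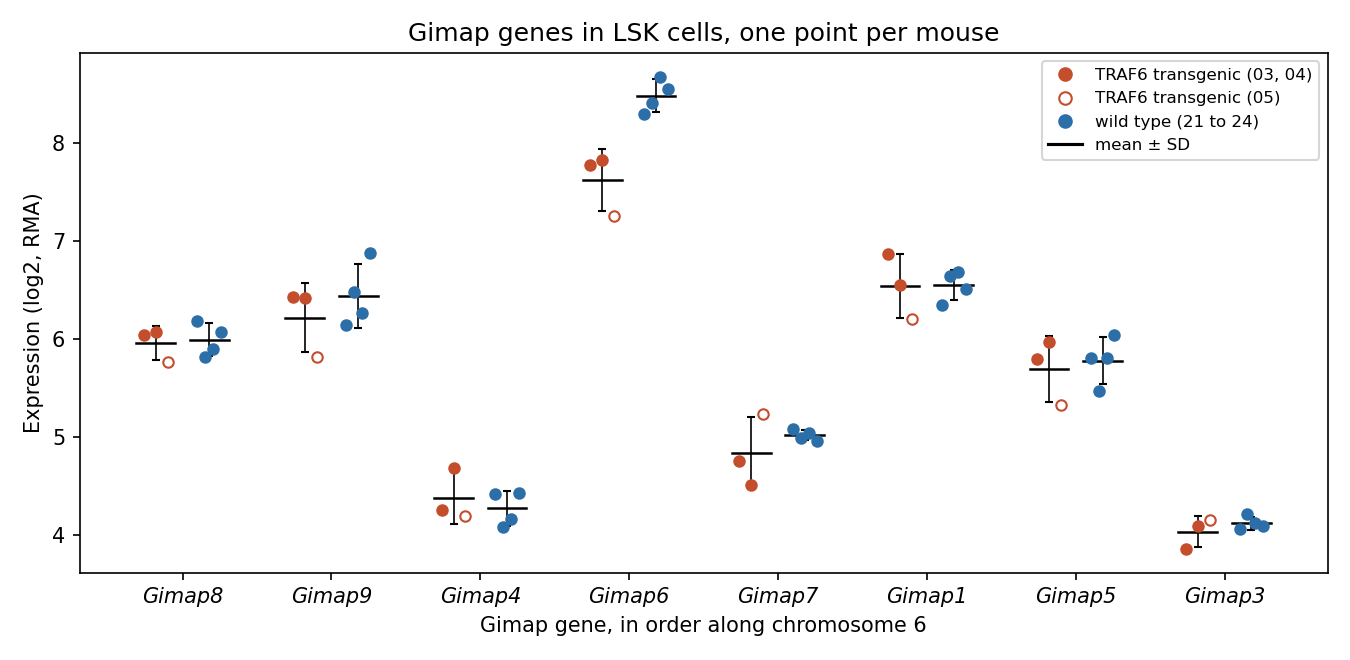
Log2 expression (vertical axis) of the 8 Gimap genes, ordered along chromosome 6, with a point for each mouse, the labelled TRAF6 transgenic group left of the wild-type group, and mean ± SD in black. The groups are apart for Gimap6 (7.25 to 7.82 in labelled transgenic mice, 8.29 to 8.68 in wild type) and overlap for the other 7 genes. Heights of different genes come from different probes and are not comparable.

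The 8 genes lie next to each other on mouse chromosome 6, with 0 other protein-coding genes between them in the RefSeq annotation of GRCm38. From 1 end to the other they run Gimap8, Gimap9, Gimap4, Gimap6, Gimap7, Gimap1, Gimap5 and Gimap3. Gimap6 and Gimap3 are read from the minus strand and the other 6 genes from the plus strand. The start regions of Gimap6 and of its immediate neighbours Gimap4 and Gimap7 are shown because these adjacent genes stood at -0.87, 0.11 and -0.18. Whether the 3 differ from each other was not tested. Each is the RefSeq promoter window of GRCm38.p6, from 250 bases before to 50 bases after the annotated start, written 5′ to 3′ on the strand of the gene. These are reference strain sequences and the mice were FVB. Capitals mark a match to any of 5 motifs searched on both strands.
Gimap6: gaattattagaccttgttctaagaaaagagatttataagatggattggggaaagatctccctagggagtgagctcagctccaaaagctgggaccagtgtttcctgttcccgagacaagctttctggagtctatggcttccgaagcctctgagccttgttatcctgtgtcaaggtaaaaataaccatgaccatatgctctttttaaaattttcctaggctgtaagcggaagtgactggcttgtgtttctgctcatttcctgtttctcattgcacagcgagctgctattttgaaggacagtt
Gimap4: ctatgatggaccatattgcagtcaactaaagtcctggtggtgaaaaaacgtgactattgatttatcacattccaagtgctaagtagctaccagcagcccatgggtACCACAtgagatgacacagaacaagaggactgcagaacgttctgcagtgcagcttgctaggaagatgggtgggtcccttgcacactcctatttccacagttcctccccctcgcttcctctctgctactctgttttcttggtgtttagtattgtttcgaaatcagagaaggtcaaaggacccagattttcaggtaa
Gimap7: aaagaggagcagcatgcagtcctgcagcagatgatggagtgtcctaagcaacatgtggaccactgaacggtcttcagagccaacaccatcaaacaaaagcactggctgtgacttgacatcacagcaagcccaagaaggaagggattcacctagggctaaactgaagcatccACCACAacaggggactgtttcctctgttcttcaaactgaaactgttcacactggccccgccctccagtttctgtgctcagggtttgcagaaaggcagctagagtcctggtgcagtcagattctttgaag
The windows are chr6:48708195-48708494 on the minus strand for Gimap6, chr6:48684328-48684627 on the plus strand for Gimap4 and chr6:48718371-48718670 on the plus strand for Gimap7. The motifs were 1 ETS form, CCGGAA, the RUNX motif TGTGGT, the GATA motif AGATAA, 1 E-box form, CAGCTG, and the RBPJ motif TGGGAA. None of these 5 runs of letters occurs in the Gimap6 window. Other forms of the ETS core and the E-box were not searched, so a window with 0 matches can still hold them. The RUNX letters occur on the opposite strand in the windows of Gimap4, Gimap7 and Gimap1, which is 3 of the 9 Gimap windows in the table (Gimap8 has more than 1), against 16.8% of all 32851 promoter windows. RBPJ letters occur in the window of Gimap3 (1 of 9 windows, against 25.6% of all). The ETS, GATA and E-box letters occur in 0 of the 9 windows, against 14.9%, 11.2% and 16.3% of all windows. A match describes letters and is not evidence of binding.

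The immediate neighbours of Gimap6 had overlapping groups. Gimap4, whose loss in mice slows the execution of T cell death, measured 4.25, 4.68 and 4.20 on labelled transgenic 03, 04 and 05, against 4.41, 4.08, 4.16 and 4.42 on wild type 21 to 24. Its difference was 0.11 (SE 0.16, limma adjusted p = 0.857), the only positive difference among the members. Gimap7, whose human counterpart stimulates the GTPase activity of a partner GIMAP protein, measured 4.75, 4.51 and 5.23 on labelled transgenic 03, 04 and 05, against 5.07, 4.99, 5.04 and 4.96 on wild type 21 to 24. Here array 05 lay above all wild-type arrays while 03 and 04 lay below all of them. The difference of Gimap7 was -0.18 (SE 0.17, limma adjusted p = 0.755) over all arrays and -0.38 (SE 0.11, adjusted p = 0.212) without array 05. In that fit 2 of 8 members, Gimap6 and Gimap7, were lower at unadjusted p under 0.05, against 4.07% of all clusters, and the groups of the same 2 genes did not overlap, against 9.15% of clusters. With array weights, which let array 05 count for less, 2 members were likewise lower at unadjusted p under 0.05, against 7.11% of clusters.

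At the far end of the cluster lie the genes best known from lymphocyte deficiency. Gimap5 protein is needed for T cell survival, and its loss in mice also impairs blood stem cells. Gimap5 measured 5.80, 5.96 and 5.32 on labelled transgenic 03, 04 and 05, against 5.80, 5.47, 5.81 and 6.04 on wild type 21 to 24. The ranges overlapped broadly, array 05 was again the lowest, and the difference was -0.08 (95% interval -0.54 to 0.37, limma adjusted p = 0.916). Gimap1, which mature T and B cells need in mice, measured 6.86, 6.54 and 6.20 on labelled transgenic 03, 04 and 05, against 6.34, 6.64, 6.68 and 6.51 on wild type 21 to 24. Array 03 was the highest and 05 the lowest of all 7, and the means differed by -0.0069 (95% interval -0.41 to 0.40, adjusted p = 0.995). Gimap3, a relative of Gimap5 linked in mice to the segregation of mitochondrial DNA, measured 3.85, 4.09 and 4.14 on arrays labelled transgenic, against 4.05, 4.21, 4.12 and 4.09 on wild-type arrays. Its difference was -0.09 (SE 0.11, adjusted p = 0.824). Gimap3 and Gimap5 are related in sequence, and whether their probes read each other's RNA was not tested.

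Gimap8 and Gimap9 open the cluster at the other end. Gimap8, whose protein carries several GTP-binding domains, measured 6.04, 6.07 and 5.76 on labelled transgenic 03, 04 and 05, against 6.18, 5.81, 5.90 and 6.07 on wild type 21 to 24. The difference was -0.035 (95% interval -0.35 to 0.28, limma adjusted p = 0.956). Gimap9 measured 6.42, 6.41 and 5.81 on labelled transgenic 03, 04 and 05, against 6.14, 6.48, 6.26 and 6.88 on wild type 21 to 24. It had the widest interval of the members, -0.75 to 0.30 around a difference of -0.22 (adjusted p = 0.772), which became -0.022 without array 05. Across the 7 members other than Gimap6 the 95% intervals reached from -0.75 to 0.48, which does not show that these genes were equal between the groups. The intervals of Gimap5, Gimap7 and Gimap9 overlapped that of Gimap6.

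**Figure D2:**
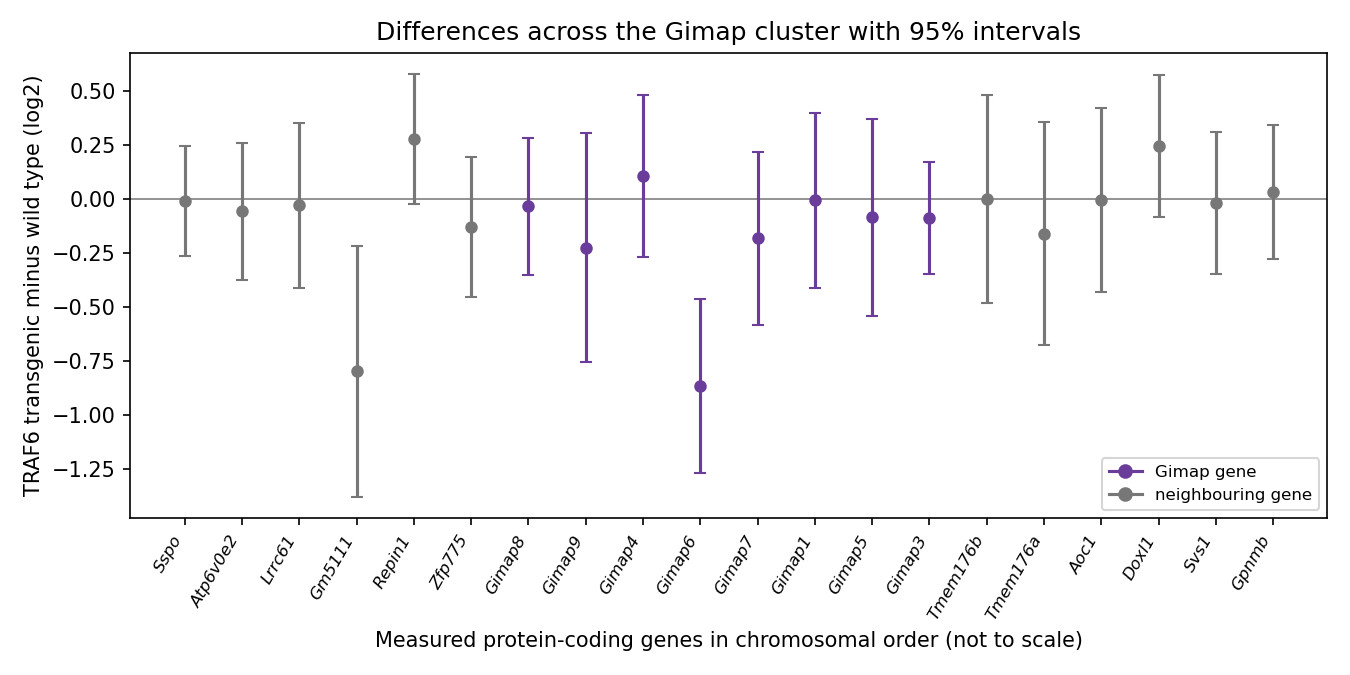
Difference in log2 expression, labelled TRAF6 transgenic minus wild type (vertical axis), with 95% limma intervals, for the measured protein-coding genes of the Gimap cluster (purple) and around it (grey), in chromosomal order and not to scale. Gimap6 (-0.87) and, outside the cluster, Gm5111 (-0.80) have intervals below 0, and the intervals of the other genes include 0.

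Signal strength differed among the members' probes. By mean over all arrays, 5 members lay above the 40th percentile of clusters and 3 (Gimap3, Gimap4 and Gimap7) below it. At the mean of Gimap6, 81.0% of clusters were lower, and at that of Gimap3 17.4% were. The table gives no detection calls, so how much of the signal of Gimap3 and Gimap4 is background is not known.

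Within each array, Gimap6 was also set against the mean of the other 7 members, which removes a shift that all members' probes read alike. Gimap3, Gimap4 and Gimap7 lay below the 40th percentile, and how fully their probes would read such a shift was not tested. This contrast was chosen after the values were seen and is a description with no test. It stood at 2.35, 2.36 and 2.01 on labelled transgenic 03, 04 and 05, against 2.86, 3.03, 3.25 and 2.99 on wild type 21, 22, 23 and 24. The 3 labelled transgenic arrays were lower than all wild-type arrays, by 0.79 on average. The mean of the other 7 members was 5.43, 5.47 and 5.24 on labelled transgenic 03, 04 and 05, against 5.43, 5.38, 5.42 and 5.57 on wild-type arrays, with overlap. Array 05 was the lowest labelled transgenic array for 6 members and the highest for 2, Gimap7 and Gimap3.

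**Figure D3:**
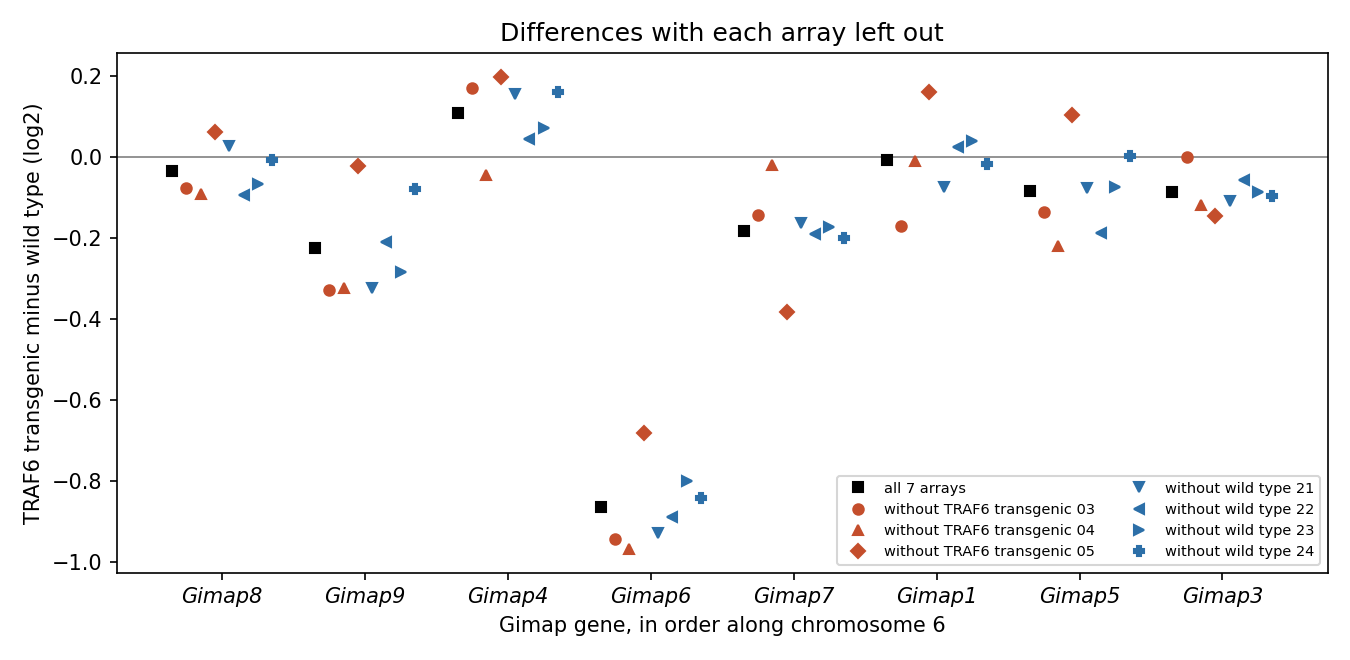
Difference in log2 expression, labelled TRAF6 transgenic minus wild type (vertical axis), of each Gimap gene with all 7 arrays (black) and with each array left out (orange for labelled transgenic arrays, blue for wild-type arrays). Gimap6 stays between -0.97 and -0.68, Gimap7 and Gimap9 stay below 0, and the other 5 genes cross 0.

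Genes on either side of the cluster were examined to see whether the difference of Gimap6 extended along the chromosome. Of the 8 nearest protein-coding genes on each side, 12 were measured, with a median difference of -0.013 (0.010 without labelled transgenic 05), and 8 were below 0. At unadjusted p under 0.05, 1 of the 12 was lower and 0 were higher, against 5.05% and 5.22% of all clusters. The gene was Gm5111, a predicted gene, at 6.36 ± 0.39 (SD, n = 3) on labelled transgenic arrays and 7.16 ± 0.36 (SD, n = 4) on wild-type arrays, a difference of -0.80 (SE 0.25, limma adjusted p = 0.387) that became -0.58 without array 05. Repin1, a zinc finger gene, and Zfp775 lie between it and the cluster and differed by 0.28 and -0.13. Across the other boundary, the membrane protein genes Tmem176b and Tmem176a differed by 0.0007 and -0.16. Groups overlapped for these 4 genes and for Doxl1, at 0.24. With array 05 left out, Repin1 (0.35) and Tmem176b (0.26) were higher without overlap, and Tmem176a stood at 0.12. In that fit 0 of the 12 were lower and 2 higher at unadjusted p under 0.05. Of all 23332 clusters, 949 were lower and 2719 higher.

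Genes for reported partners of GIMAP proteins were taken from the Bcl2 family, which governs cell death at mitochondria, and the Atg8 family, which builds autophagosomes. Of 11 measured, 2 were lower and 1 higher at unadjusted p under 0.05 (5.05% and 5.22% of all clusters), with limma adjusted p of 0.360 or more. The median was -0.21, and -0.071 without labelled transgenic 05. Groups did not overlap for 4 of the 11, all lower, against 5.18% of clusters. With labelled transgenic 05 left out, 4 were lower without overlap, against 9.15% of clusters. In that fit 2 were higher without overlap, Bcl2 (0.24) and Bcl2l1 (0.53), and the matching share of clusters was not counted. Bcl2l11, which encodes the death-promoting protein Bim, averaged 7.21 ± 0.20 (SD, n = 3) on labelled transgenic arrays and 7.87 ± 0.29 (SD, n = 4) on wild-type arrays, a difference of -0.65. The survival gene Mcl1 differed by -0.37 and the survival gene Bcl2l1 by 0.43. Gabarapl2, the gene of the Gimap6 partner, differed by -0.33 (SE 0.25, adjusted p = 0.693) with groups that overlapped, and by -0.071 without array 05. The other Atg8 genes Map1lc3b and Map1lc3a differed by -0.39 and -0.21 without overlap, and Bcl2 by 0.15. Averaged over the list, arrays 03, 04 and 05 labelled transgenic stood at 8.47, 8.48 and 8.15, and wild-type arrays at 8.45 to 8.57, so array 05 was low here as well.

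Interferon-inducible GTPases are another set of immune GTPases, and 9 of 19 listed were measured. At unadjusted p under 0.05, 0 were lower and 1 was higher, against 5.05% and 5.22% of all clusters. Their median difference was 0.012, and it ran from -0.0037 when wild type 21 was left out to 0.11 when labelled transgenic 03 was. Irgm1, which acts against intracellular pathogens, averaged 7.53 ± 0.21 (SD, n = 3) on labelled transgenic arrays and 6.99 ± 0.25 (SD, n = 4) on wild-type arrays (limma adjusted p = 0.384). Gbp7 differed by 0.17 and Gvin1 by -0.21, with overlap.

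Genes of early lymphoid priming mark the first steps of progenitors towards lymphocytes. Of 14 measured, 7 were lower and 0 higher at unadjusted p under 0.05 (5.05% of all clusters were lower), 6 were lower without overlap (5.18% of clusters), and the median was -0.40 (-0.24 without labelled transgenic 03). The smallest adjusted p in limma was 0.283. Flt3, the gene of a receptor tyrosine kinase on lymphoid-primed progenitors, averaged 8.85 ± 0.20 (SD, n = 3) on labelled transgenic arrays and 9.52 ± 0.11 (SD, n = 4) on wild-type arrays. Satb1, a chromatin organiser, differed by -0.44, and Ly6d, a surface marker of early B lineage progenitors, by -0.45. Whether these genes and Gimap6 differ in the same cells was not tested.

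Lymphocytes and endothelial cells carry Gimap RNA, so their markers are given beside Gimap6. The lineage-negative gate of the sort is meant to remove mature lymphocytes. Of 22 T and NK cell markers 3 were lower and 0 higher at unadjusted p under 0.05 (5.05% and 5.22% of all clusters), 5 were lower without overlap (5.18% of clusters), and the median was -0.09. The 3 lower ones by p were the costimulatory receptor gene Cd28 (-1.08), the signalling adaptor gene Lat (-0.45) and Cd4 (-0.32). The T cell receptor chain genes Cd3d, Cd3e and Cd3g differed by -0.14, -0.11 and 0.21, with overlap. The list averaged 5.75 to 5.85 on labelled transgenic arrays and 5.86 to 5.95 on wild-type arrays. Of 7 B cell markers 3 were lower and 1 higher at unadjusted p under 0.05 (5.05% and 5.22% of all clusters). The same 3 were lower without overlap (5.18% of clusters). The median was -0.0052 (-0.17 without labelled transgenic 05 and 0.089 without 03). The lower ones were the transcription factor genes Ebf1 (-1.43) and Pax5 (-0.66) and the B cell receptor gene Cd79a (-0.67), and the higher one was Cd79b (0.41). This list averaged 5.39 to 5.59 on labelled transgenic arrays and 5.69 to 5.94 on wild-type arrays. No marker can be read as being at 0, since an array gives a background signal. At the means of Cd3g and of the B cell gene Ms4a1, 11.6% and 6.54% of clusters were lower. The part of other cell types in the Gimap6 difference was not tested.

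Of 14 endothelial markers 1 was lower and 0 higher at unadjusted p under 0.05 (5.05% and 5.22% of all clusters). The median was 0.022, with 0.11 without labelled transgenic 05 and -0.048 without 04. The lower one was Robo4, which blood stem cells also carry, at -0.52 (limma adjusted p = 0.469) and at -0.24 without array 05. Tek and Vwf, of the same list, differed by 0.21 and 0.18 with overlap, and by 0.44 and 0.45 without array 05. In that fit Robo4 was the 1 marker lower at unadjusted p under 0.05, and Tek and Vwf were the 2 higher. Of all 23332 clusters, 949 were lower and 2719 higher in the same fit. The endothelial cadherin gene Cdh5 differed by -0.046 and the receptor gene Kdr by 0.11. Emcn, which stem cells share, stood at -0.29 and the tight junction gene Cldn5 at 0.50, with overlap. Which other genes of this list, Tek and Vwf among them, the LSK cells themselves carry was not tested. The list averaged 6.47 to 6.82 on labelled transgenic arrays, against 6.55 to 6.72 on wild-type arrays, so it did not separate the groups.

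**Figure D4:**
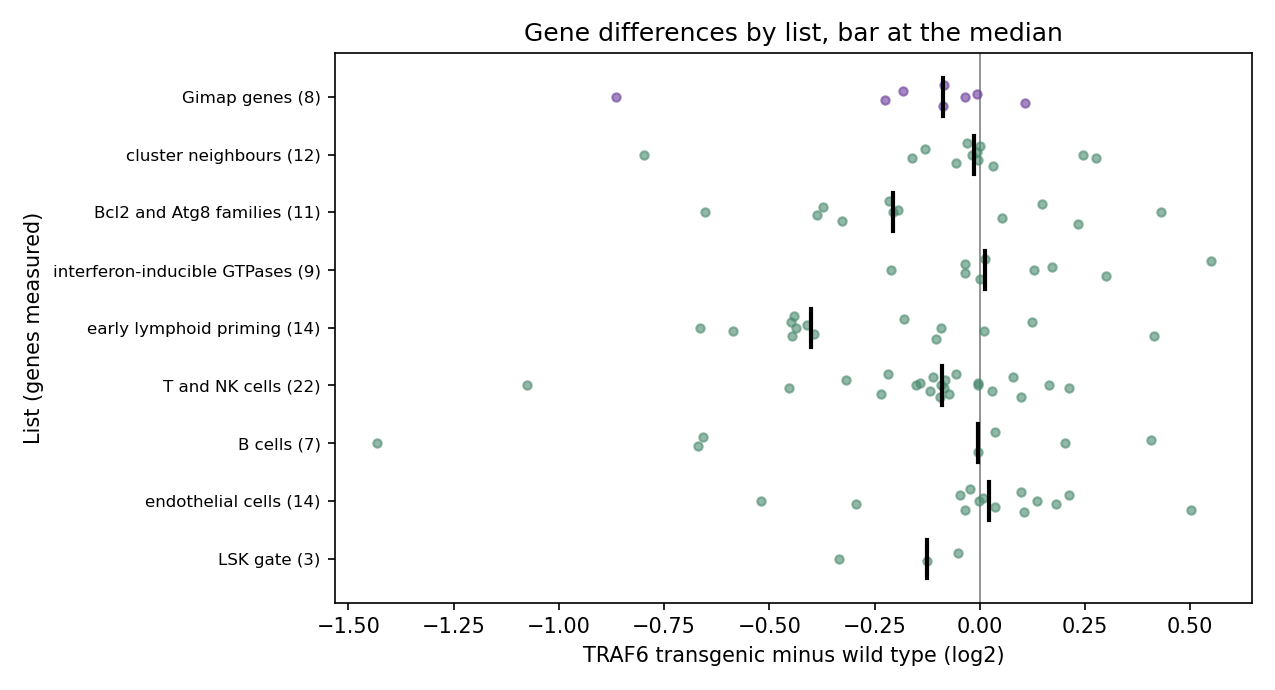
Differences in log2 expression, labelled TRAF6 transgenic minus wild type (horizontal axis), of the measured genes of each list, a point per gene (vertical offset only separates points) and a black bar at the median. The Gimap genes have a median of -0.09 with Gimap6 apart at -0.87, and the early lymphoid list has a median of -0.40.

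The mean profile of the 8 Gimap genes over the 7 arrays was compared with those of 14852 other genes, each centred on its own mean. Likeness was the root mean square distance in log2 units. Closest was Srgn, which encodes the granule proteoglycan serglycin, at 0.027, followed by Tcirg1, a subunit of the proton pump, at 0.032. Arf6, a small GTPase of membrane traffic, stood at 0.035, Smim19 at 0.035 and the splicing factor gene Sf1 at 0.040. Ptprm, Kcmf1 and Cdca4 followed, at 0.040 to 0.042. The median distance over all genes was 0.199. The root mean square deviation of the Gimap profile from its own mean was only 0.127, so small distances are easily reached. These 8 genes differed by -0.12 to -0.20 between the groups, which follows from their choice, since the Gimap mean itself differed by -0.17. Among the members, Gimap6 lay farthest from the mean profile, at 0.367, so that profile does not describe each member.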

How the data were processed

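RNA of LSK cells from 7 mice was measured on exon arrays, per the labels' protocols. The authors processed the arrays with RMA and deposited log2 values per gene, and the submitters' processing notes name RMA and the build mm9. RMA is meant to equalise arrays, which can remove shifts shared by most genes. In the deposited values array medians still lay between 5.98 and 6.21. Median centring moved the median difference over all clusters from -0.0018 to 0.056. The log2 scale was read from the values (1.28 to 14.03). Its settings are not given in the sources used here.

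Symbols came from the platform annotation (14996 clusters had 1, 1019 several and 7317 none). Listed genes with several rows took the row of highest mean. Limma 3.58.1 in R 4.3.3 (two-sided, genotype only, no filter) was fitted on all clusters, with Benjamini-Hochberg adjustment. Its p-values reflect variation among these animals, and the array number limits precision. In simulated data of 23332 clusters limma recovered 24 of 50 genes changed 2-fold and 45 of 50 changed 4-fold, with 8 false calls. The simulated noise was normal and independent between clusters, with no shift of a whole array. These rates are therefore not the sensitivity of the real comparison.

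The members and lists were chosen with earlier results of these data known. Named genes were the 8 members, up to 3 genes of each list by smallest unadjusted p, the 8 genes of most similar profile, Traf6, Eif2s3y and Kdm5d; other list genes were added after their values were seen. Promoters came from RefSeq (GRCm38.p6), with all 8 members matched. Alternatives were a low-signal filter, quantile normalization, median centring, array weights, a robust prior with intensity trend, a looser threshold, a single cluster for each gene, and omission of each array. Figures used matplotlib 3.10.9.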

Additional observations from a re-analysis of the deposited data

Results flagged for a closer look

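Among 45 genes examined, the wild-type values of 2 held an array far from the other 3, where chance gives about 1 in 20 groups of 4. Cldn5 was high on wild type 21, where the gap to the next array took up 0.941 of the group's range. Cdca4 was high on wild type 24, with a gap of 0.837 of the range. The wild-type values of the 8 Gimap genes held no such array. Groups of 3 were not examined in this way.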

How the results depend on the processing

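Under the alternatives Gimap6 stayed between -0.97 and -0.68 with limma adjusted p from 0.0894 (array weights) to 0.597, and 0 members passed the adjusted threshold under any alternative at 0.05 or, with all arrays and main settings, at 0.1. Gimap7 and Gimap9 also kept their sign. Leaving out each array gave -0.17 to 0.16 for Gimap1, -0.15 to 0.00042 for Gimap3, -0.045 to 0.20 for Gimap4, -0.22 to 0.10 for Gimap5 and -0.094 to 0.062 for Gimap8. Array weights turned Gimap1 to 0.025, Gimap5 to 0.11 and Gimap8 to 0.085, median centring gave Gimap1 0.051 and Gimap8 0.023, and quantile normalization gave 0.018 and 0.015. None of these passed the threshold, and the cause was not tested. Members lower at unadjusted p under 0.05 numbered 2 with array weights, against 7.11% of clusters, and 1 to 2 on leaving out arrays. The 2 came on leaving out labelled transgenic 05, against 4.07% of clusters. Members lower without overlap numbered 1 to 2 and members below 0 numbered 4 to 8 on leaving out arrays (4 with array weights). The 2 without overlap also came on leaving out labelled transgenic 05, where 9.15% of clusters were lower without overlap, against 5.18% with all arrays. Of all clusters 50.3% were below 0 with all arrays, and that share was not counted in the other fits. The T and NK median was -0.031 after centring and -0.033 after quantile normalization. The B cell median was -0.66 without low-signal clusters, which left 5 of its 7 genes. Leaving out arrays gave B cell medians of -0.17 to 0.089 and early lymphoid medians of -0.43 to -0.24. The low-signal filter removed 3 members. No member had another row to try. No paired analysis was possible because the groups share no replicate number.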

Other observations

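The genes closest to the profile of Gimap6 alone were looked up after its values were seen, and are given as a description over 7 arrays with no test. By root mean square distance of centred log2 values they were S100a6, a calcium-binding protein gene, at 0.093, Plaur, the urokinase receptor gene, at 0.097, Bgn, which encodes the matrix proteoglycan biglycan, at 0.0997, Tox, a transcription factor gene of T cell development, at 0.109 and the chemokine gene Cx3cl1 at 0.113. The median distance over 14859 genes was 0.496. These 5 genes differed by -0.70 to -0.80 between labelled transgenic and wild-type arrays, with limma adjusted p of 0.283 to 0.342. Differences near that of Gimap6 follow from the way the genes were chosen, on the same arrays.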
